A study of Mus musculus with 6 samples.

Results

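Oxidative phosphorylation genes were read as the rows of the expression table whose symbols begin with Nduf followed by a subunit letter (a, b, c, s or v) and a digit, are Sdha to Sdhd, or begin with Uqcr, Cox4 to Cox8 or Atp5, with pseudogene symbols left out. This gave 84 of 24346 gene symbols: 35 structural subunits of complex I, 4 of complex II, 8 of complex III, 19 of complex IV, 15 of complex V and 3 symbols that are not subunits. Ndufa4 and its paralog Ndufa4l2 were placed in complex IV, where the Ndufa4 protein is now assigned. The 11 assembly factors with Ndufaf or Sdhaf symbols were read beside them. RNA-seq came from primary articular chondrocytes, the cells of joint cartilage, of ICR mice at postnatal day 4. They were cultured without (control, 3 libraries) or with semaphorin 4D (Sema4D, 3 libraries), a ligand of plexin-B receptors, and the labels give neither a dose nor a duration. Nor do they say if the replicates come from different cultures or animals; each p-value therefore reflects library-to-library spread, possibly only technical.

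Complexes I and II pass electrons from NADH and succinate to coenzyme Q, complex III passes them on to cytochrome c, and complex IV (cytochrome c oxidase) reduces oxygen with them. Complexes I, III and IV pump protons, and complex V (ATP synthase) uses the proton gradient to make ATP. Articular chondrocytes live in poorly perfused tissue and are known for a largely glycolytic metabolism, and several complex IV subunits exist as paralogs that differ between tissues or respond to oxygen. The subunits that mitochondrial DNA encodes are outside the symbols used here, so every value concerns nuclear genes.

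Values are FPKM (by definition fragments scaled by transcript length and by the number of mapped fragments), which allow levels to be set side by side between genes. The scaling between libraries that was used here is not given. FPKM columns summed to 492708 to 494123 in the control and 518901 to 527492 in the Sema4D libraries, and depth, estimated from the steps of low values, was 1.25e+07 to 1.67e+07 fragments. Of 10 chondrocyte markers, 9 were in the file under the symbols used and all 9 fell with Sema4D by limma. Their summed level was 15021 to 16145 FPKM in control and 12021 to 12957 FPKM in Sema4D libraries, without overlap. Of 7 fibroblast markers 3 rose (Pdgfra, 0.86, Lum, 0.71, and Dcn, 0.52) and 2 fell (Dpt, -0.95, and Col1a2, -0.32), with a median of 0.09. Their sum, mostly collagen transcripts, was 8751 to 9323 FPKM in control and 8293 to 8613 FPKM in Sema4D libraries. Osteoblast markers summed to 8.86 to 9.59 FPKM and 7.02 to 7.36 FPKM, and both tested ones fell (Alpl and Runx2, each -0.21). In such bulk samples fewer cells of a type and less RNA per cell cannot be told apart, and the part of these shifts in the results below was not tested. Endothelial and erythroid markers summed to at most 0.307 and 0.207 FPKM in any library. Macrophage markers summed to 24.8 to 32.4 FPKM in control and 23.1 to 26.3 FPKM in Sema4D libraries, with Ptprc under 0.2 FPKM. Lyz2, which gave most of that sum (-0.46), and Tyrobp (-0.70) fell, and Cd14 rose from 1.84 to 3.95 FPKM (0.80). Fold changes below are on the log2(FPKM + 1) scale, as Sema4D minus control, and a gene is said to have risen or fallen only when its limma p, adjusted over all 11603 genes tested, was under 0.05.

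Oxidative phosphorylation genes changed little with Sema4D. Of the 84 members, 81 passed the filter on low values, and of these 3 rose, 18 fell and 60 did not pass the threshold. The rises were those of Ndufa4l2, Uqcrq and Ndufs6, and the largest falls among subunits those of Cox4i2, Ndufb10 and Sdhb. Among all tested genes 46.7% were called, 24.5% higher and 22.2% lower, so that the members' 25.9% is below the background and their falls are near its share of lower genes. The groups did not overlap for 6 members that were higher and 21 that were lower, against 29.6% and 27.0% of all tested genes (56.6% in either direction). The median log2 fold change of the members was -0.039, beside 0.006 over all tested genes. Fitted changes were over 1.1-fold for 19 members and over 1.5-fold for 1, and that 1, Ndufs5, was not past the threshold.

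**Figure D1:**
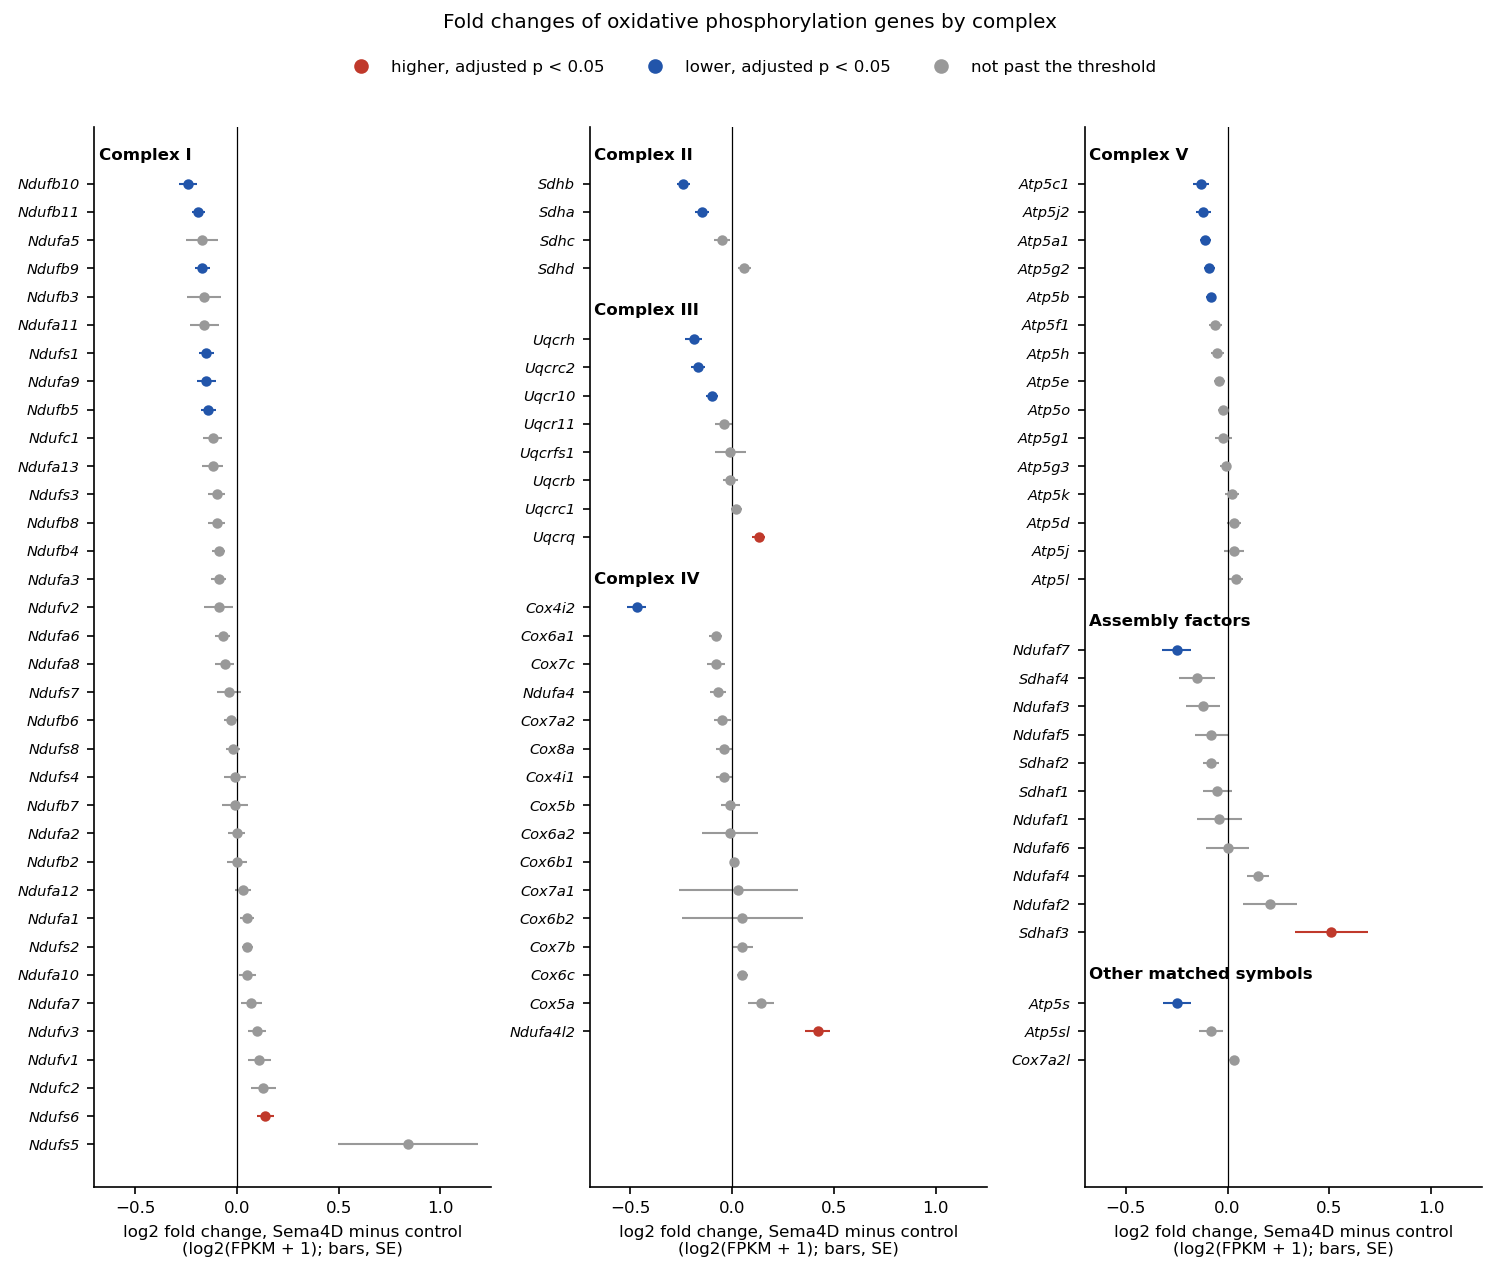
Log2 fold changes (Sema4D minus control, log2(FPKM + 1) scale, horizontal axis) of each tested subunit, assembly factor and other matched symbol, with bars for the limma SE (3 libraries per group); red and blue points passed the adjusted p threshold. Most points lie close to 0, with Cox4i2 (-0.47) and Ndufa4l2 (0.42) the called subunits farthest from it and Ndufs5 (0.84) with the widest bar.

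The number called depends on how libraries are scaled. With every library scaled to the same total, as TPM (FPKM divided by the library's sum), 45 members were lower and 1 higher, and with quantile normalization 39 were lower and 1 higher. After TPM scaling 32.8% of all tested genes were lower and 17.3% higher, and after quantile normalization 29.4% and 18.7%. The members' median minus that of all genes was -0.045 as deposited, -0.05 after TPM scaling and -0.072 after quantile normalization. The members together took 2.12% to 2.15% of the FPKM total in control and 1.95% to 2.0% in Sema4D libraries, while their summed FPKM was 10495, 10597 and 10535 in control and 10292, 10300 and 10446 in Sema4D libraries. The sum differed by -1.86%, and the groups did not overlap. By the median ratio over genes the libraries were already alike (factors 1.0016 to 1.0033). The scaling of the deposited values is not given, and if it was of this kind the agreement was built in. It therefore cannot show which scale is right, and the 18 falls after median ratio scaling are no separate support. Without Sema4D replicate 1, which had the lowest value of its group for 39 of the 81 members, 11 members fell and 3 rose.

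**Figure D2:**
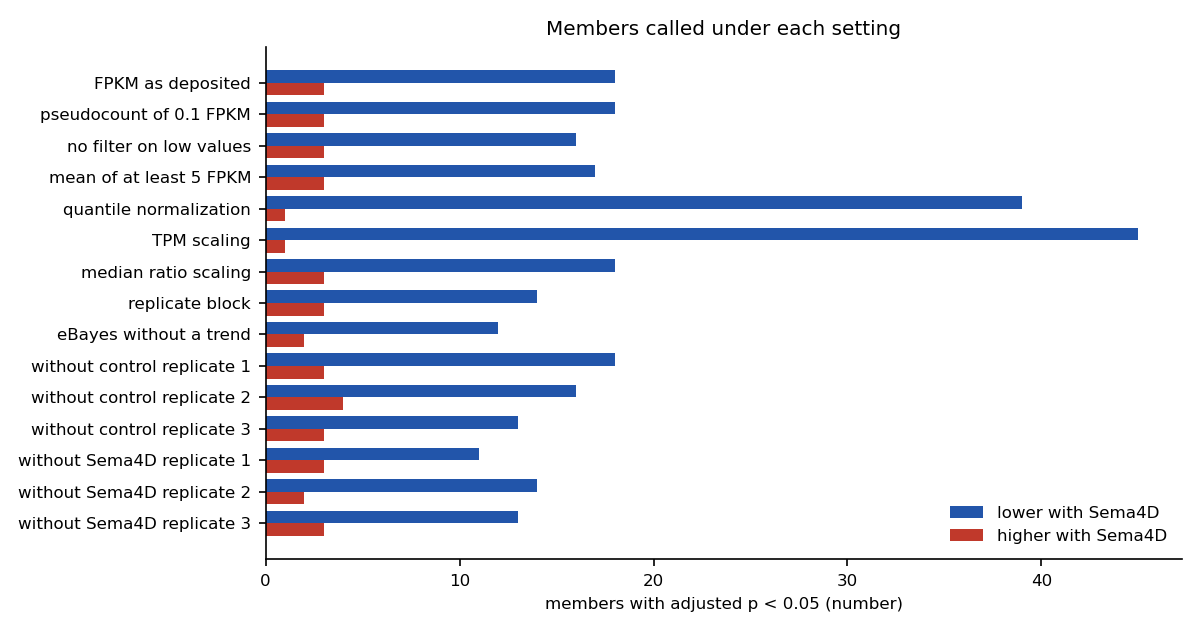
Number of the tested members called higher (red) or lower (blue) with Sema4D by limma at adjusted p under 0.05, under the deposited scale and each alternative (vertical axis). Falls number 18 as deposited, 39 and 45 under quantile normalization and TPM scaling, and 11 without Sema4D replicate 1.

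To show regulatory sequence of genes that fell, the 250 bases before the annotated start were taken from RefSeq (GRCm38.p6, the assembly of the authors' build). The windows are of Sdhb and Uqcrh, the largest falls of complexes II and III, and Atp5g2, a smaller fall of complex V. They are printed 5′ to 3′ on the gene's strand, with matches to any of 4 motifs searched on both strands in capitals.
Sdhb (chr4:140961021-140961270, plus strand): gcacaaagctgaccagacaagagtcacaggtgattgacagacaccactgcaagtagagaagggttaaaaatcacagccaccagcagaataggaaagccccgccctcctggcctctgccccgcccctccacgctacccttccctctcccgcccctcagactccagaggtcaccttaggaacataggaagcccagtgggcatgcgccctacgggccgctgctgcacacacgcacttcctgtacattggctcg
Uqcrh (chr4:116075071-116075320, minus strand): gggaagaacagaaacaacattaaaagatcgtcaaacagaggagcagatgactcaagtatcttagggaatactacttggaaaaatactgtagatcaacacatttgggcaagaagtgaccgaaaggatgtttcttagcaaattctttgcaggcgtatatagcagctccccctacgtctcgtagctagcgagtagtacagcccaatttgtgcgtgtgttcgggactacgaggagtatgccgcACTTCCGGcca
Atp5g2 (chr15:102671048-102671297, minus strand): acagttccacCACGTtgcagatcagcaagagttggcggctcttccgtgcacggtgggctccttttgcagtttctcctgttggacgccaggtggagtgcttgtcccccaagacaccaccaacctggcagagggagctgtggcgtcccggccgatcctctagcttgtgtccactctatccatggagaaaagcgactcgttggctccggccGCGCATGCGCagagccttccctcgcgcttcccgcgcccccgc
The motifs, chosen after the expression values were seen, were the NRF1 palindrome, GCGCA followed directly by its reverse complement (nuclear respiratory factor 1, which is known to drive many respiratory chain genes), CCGGAAGT (ETS factors such as GABP, likewise), AAGATGGC (YY1) and ACGTG (the core of the hypoxia response element). Capitals mark 1 ETS match in Uqcrh, and 1 match each of NRF1 and ACGTG in Atp5g2. The NRF1 letters stood in 4 of the 69 members with a promoter entry (Atp5g2, Atp5k, Cox6a1 and Ndufa11; 5.8%), in 1.9% of tested genes with an entry and in 0.782% of all 32851 windows of this length. ETS letters were in 4.35% of the members, 7.14% of tested genes and 2.88% of windows. YY1 letters were in 2.9%, 2.51% and 1.56%, and ACGTG in 23.2%, 25.7% and 16.6%. In the 3 windows printed no matches overlap each other. Of the 13 fallen members with an entry, 1 held the NRF1, 1 the ETS, 0 the YY1 and 3 the ACGTG letters. The 1 with NRF1 letters was Atp5g2. Windows of Atp5c1 (-0.13) and Atp5j2 (-0.12), which fell more than Atp5g2 (-0.09), held none of these letters. A match describes these letters only, and among members and tested genes one with several start sites was counted once if any window matched.

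In complex I, 6 of 35 subunits fell and 1 rose (median log2 fold change -0.06). Of the falls, 4 were among the 10 Ndufb subunits (40%, beside 22.2% of all tested genes), whose median was -0.12. These sit in the membrane arm, as do some subunits with other letters, and grouping by letter was chosen after the data were seen. The summed FPKM of the Ndufb subunits was 957.1, 968.8 and 976.3 in control and 903.6, 885.4 and 889.3 in Sema4D libraries, a difference of -7.72%. The Ndufv sum was 205.7, 219.2 and 214.6 FPKM in control and 224.1, 219.2 and 227.7 FPKM in Sema4D libraries (4.94%), where the closest values round to the same number. The sums of the other letters overlapped between groups, with differences of 3.97% (Ndufs), -1.57% (Ndufc) and -2.33% (Ndufa). The sum of all complex I subunits was 2834, 2951 and 2898 in control and 2820, 2796 and 2841 in Sema4D libraries, and here the groups overlapped.

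Ndufb10, a membrane arm subunit (chromosome 17, 24722060 to 24724423 in mm10), was at 97.8, 105 and 108 FPKM in control and 83.2, 90.5 and 88.1 FPKM in Sema4D libraries. It fell by 0.24 on the log2 scale (SE 0.046, limma adjusted p = 0.00272), and every Sema4D library was below every control library. Ndufb11 (chromosome X, 20615326 to 20617619) was at 109, 109 and 108 FPKM in control and 98.6, 91.4 and 96 FPKM in Sema4D libraries (-0.19, SE 0.033, adjusted p = 0.00192). Its control values were nearly the same, and all Sema4D values lay below them. Ndufb9 stood at 142, 132 and 137 FPKM against 126, 117 and 120 FPKM (-0.17, adjusted p = 0.00557), again without overlap. Ndufb5 fell from 51.7 ± 2.31 to 46.8 ± 0.636 FPKM (mean ± SD, n = 3 per group; -0.14, adjusted p = 0.016), a call lost without control replicate 3 or Sema4D replicate 1 (limma adjusted p 0.0601 and 0.055).

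Ndufs1, which carries iron-sulphur clusters of the electron path in the matrix arm (chromosome 1, 63143592 to 63176822), was at 31.2, 31.2 and 29.8 FPKM in control and 28.7, 27.3 and 26.9 FPKM in Sema4D libraries (-0.15, SE 0.038, adjusted p = 0.0123). The groups did not overlap. Ndufv1, which binds NADH and the flavin cofactor, was not past the threshold (43.6, 51.5 and 49.1 against 53.2, 51.7 and 50.8 FPKM, adjusted p = 0.147), nor were the other 2 Ndufv subunits. Ndufs6, an accessory subunit of the matrix arm, was at 79.6, 80.6 and 82.5 FPKM in control and 95.3, 88.3 and 84.9 FPKM in Sema4D libraries and rose (0.14, SE 0.043, adjusted p = 0.0265). Its groups did not overlap, yet the rise was lost without control replicate 1 or 2 or Sema4D replicate 1 or 2 (adjusted p 0.0511 to 0.0769). The Ndufs6 call was also lost after TPM scaling (limma adjusted p 0.246) or quantile normalization (0.0639) and without eBayes's trend (0.0561). Ndufa9 fell from 54.6 ± 2.25 to 49.1 ± 2.71 FPKM (-0.15, adjusted p = 0.0315), a call lost without control replicate 1 or 3 or Sema4D replicate 1 or 3 (0.075 to 0.107). The Ndufa9 call was also lost with no filter (limma adjusted p 0.0512), with a replicate block (0.0615) and without eBayes's trend (0.0591). Ndufs5 had the largest log2 fold change of the members and no call: it was at 11.2, 33.8 and 22.1 FPKM in control and 42.3, 27.9 and 44.2 FPKM in Sema4D libraries (0.84, 95% interval 0.05 to 1.63, adjusted p = 0.0763). Its groups overlapped, and its spread within groups was 33.6% of its mean.

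Complex II, or succinate dehydrogenase, also belongs to the tricarboxylic acid cycle. Its catalytic subunit genes both fell, while its membrane anchors did not pass the threshold. With 2 of 4 genes called, its share (50%) was near the 46.7% of all tested genes. The difference between catalytic and anchor genes was not tested. Sdhb, the iron-sulphur subunit (chromosome 4, 140961271 to 140979198), was at 82.9, 82.6 and 83 FPKM in control and 67.1, 71.7 and 70.8 FPKM in Sema4D libraries (-0.24, SE 0.032, limma adjusted p = 0.00036). The control values were nearly the same, and each Sema4D value was lower. Sdha, the flavoprotein subunit (chromosome 13, 74322255 to 74350240), was at 63.6, 60.5 and 62.4 FPKM against 54.8, 58.1 and 55.2 FPKM (-0.15, SE 0.035, adjusted p = 0.00836), also without overlap. Both calls were kept under all 14 alternatives. The anchor genes Sdhc (54.9 ± 2.13 to 53.1 ± 1.98 FPKM; -0.05, adjusted p = 0.348) and Sdhd (73.7 ± 0.712 to 76.8 ± 2.58 FPKM; 0.06, adjusted p = 0.173) had 95% intervals of -0.14 to 0.04 and -0.02 to 0.13. The groups overlapped for Sdhc and, by a narrow margin, did not for Sdhd, whose Sema4D values of 76.3, 79.6 and 74.5 FPKM lay above 72.9, 73.7 and 74.4 FPKM. The summed FPKM of the 4 genes was 273.1, 270.7 and 277.2 in control and 249.9, 261.4 and 255.9 in Sema4D libraries, which was -6.55%.

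In complex III, 3 of 8 subunits fell and 1 rose (median -0.03). Uqcrh, the hinge protein that helps dock cytochrome c (chromosome 4, 116066965 to 116075070), was at 317, 289 and 290 FPKM in control and 273, 254 and 260 FPKM in Sema4D libraries (-0.19, SE 0.043, limma adjusted p = 0.00817). It was the subunit of complex III with the highest control mean, and its groups did not overlap. Uqcrc2, a core protein (chromosome 7, 120635189 to 120659523), was at 61.7, 59.6 and 63.7 FPKM against 53.6, 56.2 and 54 FPKM (-0.17, SE 0.035, adjusted p = 0.00436). The other core gene, Uqcrc1, was at 71.6, 72.6 and 71.4 FPKM against 72, 72.8 and 74.1 FPKM (0.02, 95% interval -0.04 to 0.08, adjusted p = 0.55). The core pair thus had 1 call between them, and the difference between their changes was not tested. Uqcrq, a small ubiquinone-binding subunit (chromosome 11, 53427922 to 53430831), was at 228, 229 and 244 FPKM in control and 253, 255 and 260 FPKM in Sema4D libraries and rose (0.13, SE 0.033, adjusted p = 0.0107). That rise was lost after quantile normalization (0.268) and TPM scaling (0.252). Uqcr10, another small subunit, was at 193, 186 and 194 FPKM against 176, 175 and 183 FPKM and fell (-0.10, adjusted p = 0.0238), which was lost without control replicate 1 or 3 or Sema4D replicate 1 or 2 (0.06 to 0.0817). Without eBayes's trend the Uqcr10 call was lost too (limma adjusted p 0.0701). The Rieske iron-sulphur gene Uqcrfs1 (44.9, 38.7 and 41.4 against 37.5, 40.6 and 45.8 FPKM, adjusted p = 0.897) was not past the threshold.

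Complex IV held the largest called changes of any subunit, and both were in paralogs. Of its 19 genes 16 were tested, 1 rose, 1 fell and 14 did not pass (median -0.01). Cox4i2, the paralog of Cox4i1 that is known for lung and for responding to oxygen (chromosome 2, 152753916 to 152765039), was at 36.3, 38.8 and 36.7 FPKM in control and 25.5, 26.3 and 28.3 FPKM in Sema4D libraries. It fell by 0.47 on the log2 scale (SE 0.046, 95% interval -0.57 to -0.36, limma adjusted p = 6.26e-05), and every Sema4D library was below every control library. Cox4i1, the common isoform, was at 415, 465 and 432 FPKM in control and 425, 427 and 423 FPKM in Sema4D libraries (-0.04, 95% interval -0.13 to 0.05, adjusted p = 0.462). Its groups overlapped. Cox4i2 therefore made up 8.05%, 7.7% and 7.84% of the summed FPKM of the pair in control and 5.66%, 5.81% and 6.27% in Sema4D libraries (two-sided exact permutation p = 0.1, the smallest that 3 against 3 libraries allow).

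Ndufa4l2, which hypoxia-inducible factors are known to induce (chromosome 10, 127509274 to 127517154), was at 192, 221 and 210 FPKM in control and 270, 265 and 300 FPKM in Sema4D libraries. It rose by 0.42 (SE 0.061, 95% interval 0.28 to 0.56, limma adjusted p = 0.000621), and the groups did not overlap. Ndufa4, the constitutive paralog, was at 208, 189 and 204 FPKM against 189, 193 and 190 FPKM (-0.07, 95% interval -0.15 to 0.02, adjusted p = 0.187). The paralogs stood at similar levels in control, and Ndufa4l2 was the higher of them in every Sema4D library. Its share of the pair was 47.9%, 53.9% and 50.8% in control and 58.8%, 57.8% and 61.1% in Sema4D libraries (two-sided exact permutation p = 0.1, again the smallest possible). Cox4i2 and Ndufa4l2 kept their calls under all 14 alternatives. The annotated gene of Ndufa4l2 overlaps Shmt2 by 32 bases, and Shmt2 was at 144, 145 and 145 FPKM in control and 188, 186 and 186 FPKM in Sema4D libraries (0.37, adjusted p = 4.46e-06). Cox4i2 overlaps Bcl2l1 by 6308 bases, and Bcl2l1 was at 24.9 FPKM in control and 26.9 FPKM in Sema4D libraries (0.11, adjusted p = 0.0278). The strand setting of the counting is not given in the sources used here, and the neighbours' part in these results was not tested.

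**Figure D3:**
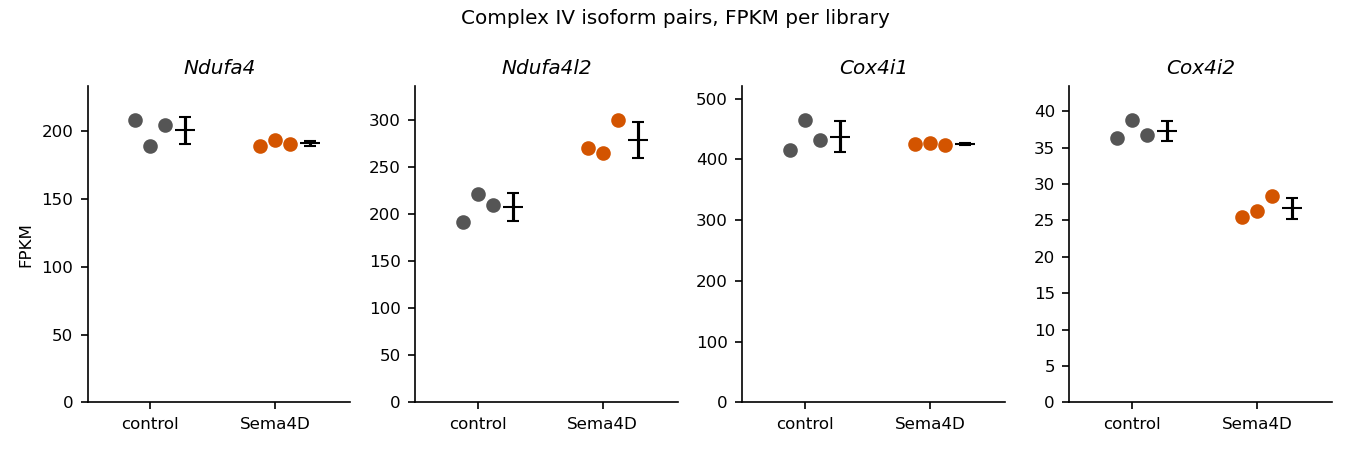
FPKM of the pairs Ndufa4 and Ndufa4l2 and Cox4i1 and Cox4i2 in each library (points), with the mean and SD of the 3 libraries of each group (black); each vertical axis starts at 0 and has its own range. Ndufa4l2 was at 192 to 221 FPKM in control and 265 to 300 FPKM in Sema4D libraries, and Cox4i2 at 36.3 to 38.8 and 25.5 to 28.3 FPKM, while Ndufa4 and Cox4i1 overlapped between groups.

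The muscle and testis paralogs of complex IV were low, and their values were unsteady. Cox6a2, the heart and skeletal muscle isoform, was at 5.81, 6.93 and 7.89 FPKM in control and 5.36, 7.22 and 7.97 FPKM in Sema4D libraries, 2.2% and 2.3% of the sum with its common paralog Cox6a1. Cox7a1, another muscle isoform, was at 1.94, 2.25 and 0.782 against 0.73, 2.35 and 2.16 FPKM, and Cox6b2, known from testis, at 4.89, 4.72 and 2.03 against 5.33, 4.39 and 2.34 FPKM. None of these 3 passed the threshold, and their 95% intervals were the widest of the complex. Cox8b, Cox8c and Cox7b2 had a mean under 1 FPKM and were not tested; Cox8b was at 0.495, 0.383 and 0.798 FPKM against 0.372, 0.399 and 0 FPKM, Cox7b2 was listed at 0 in 5 libraries and at 0.2 FPKM in Sema4D replicate 3, and Cox8c at 0 in all but control replicate 3. Muscle markers summed to 9.4 to 10.8 FPKM in control and 5.91 to 7.99 FPKM in Sema4D libraries, with the creatine kinase gene Ckm and the myosin gene Myh1 under 0.2 FPKM, and Tnnt3 (-0.71, adjusted p = 0.00132) fell. Their part in the muscle paralogs' levels was not tested.

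The common subunits of complex IV did not pass the threshold. Cox5a, which lies on the matrix side, was at 109, 99.2 and 96.2 FPKM in control and 106, 108 and 123 FPKM in Sema4D libraries (0.14, adjusted p = 0.106). Cox6a1 was at 297, 311 and 309 FPKM against 281, 291 and 298 FPKM (-0.08, adjusted p = 0.0851), and Cox6b1 at 272, 268 and 267 FPKM against 268, 272 and 272 FPKM (0.01, adjusted p = 0.756). The groups overlapped for Cox5a, Cox6a1 and Cox6b1. They did not for Cox6c, at 196, 198 and 197 FPKM against 212, 200 and 202 FPKM (0.05, limma adjusted p = 0.179). Cox8a was at 258, 269 and 249 FPKM against 243, 247 and 263 FPKM, and Cox7a2 at 104, 98.8 and 100 FPKM against 104, 93.5 and 95.4 FPKM. Cox7a2l, a paralog of Cox7a2 that joins complexes III and IV into supercomplexes and was not counted as a subunit, was at 209, 206 and 201 FPKM against 212, 209 and 209 FPKM (0.03, adjusted p = 0.332). The summed FPKM of the complex was 2550, 2619 and 2552 in control and 2561, 2571 and 2660 in Sema4D libraries (0.908%), and without Ndufa4l2 2359, 2398 and 2342 against 2291, 2305 and 2360 (-2%).

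In complex V, 5 of 15 subunits fell, 0 rose and 10 did not pass (median -0.04). Each fall was under 1.1-fold. The catalytic head genes Atp5a1 (alpha) and Atp5b (beta) were among them. Atp5a1 was at 238, 228 and 232 FPKM in control and 218, 216 and 213 FPKM in Sema4D libraries (-0.11, SE 0.027, limma adjusted p = 0.0113), without overlap and under all 14 alternatives. Atp5b (chromosome 10, 128083307 to 128090388) was at 370, 367 and 373 FPKM against 344, 352 and 355 FPKM (-0.08, SE 0.024, adjusted p = 0.0281), and its call was lost without control replicate 2 or 3 or Sema4D replicate 1 or 2 (0.0515 to 0.0908). Atp5c1, which encodes the central stalk subunit gamma, was at 126, 124 and 120 FPKM against 107, 118 and 113 FPKM and fell (-0.13, adjusted p = 0.0273), lost without control replicate 1 or 2 or Sema4D replicate 1 or 3 (0.0644 to 0.0844). The membrane subunit gene Atp5j2 was at 213, 230 and 232 FPKM against 212, 205 and 204 FPKM and fell (-0.12, adjusted p = 0.0289), lost without control replicate 2 or 3 or Sema4D replicate 2 or 3 (0.0803 to 0.101).

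The rotor ring subunit c has the same mature protein from 3 genes. Of these Atp5g2 was at 339, 323 and 321 FPKM in control and 310, 307 and 309 FPKM in Sema4D libraries and fell (-0.09, adjusted p = 0.0364), a call lost without control replicate 1 or 2 or any 1 Sema4D replicate (limma adjusted p 0.0544 to 0.0962). Atp5g1 (129, 126 and 138 against 124, 132 and 130 FPKM, adjusted p = 0.667) and Atp5g3 (204, 211 and 208 against 201, 212 and 205 FPKM, adjusted p = 0.771) overlapped between groups. Atp5g2 gave 49.2% ± 1.16 (SD, n = 3) of the summed FPKM of the 3 genes in control and 48% ± 0.871 in Sema4D libraries, ranges that overlap (two-sided exact permutation p = 0.3). The whole complex summed to 3362, 3322 and 3346 FPKM in control and 3232, 3272 and 3251 FPKM in Sema4D libraries (-2.73%), so that the groups did not overlap. With a replicate block 2 complex V genes fell, and without eBayes's trend 1 did. Atp5s, a coupling factor gene that is not a subunit, was at 4.47, 4.09 and 4.54 FPKM against 3.36, 3.84 and 3.3 FPKM and fell (-0.25, adjusted p = 0.0153), which was lost without control replicate 3 or Sema4D replicate 1 or 3 (0.0508 to 0.0553).

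**Figure D4:**
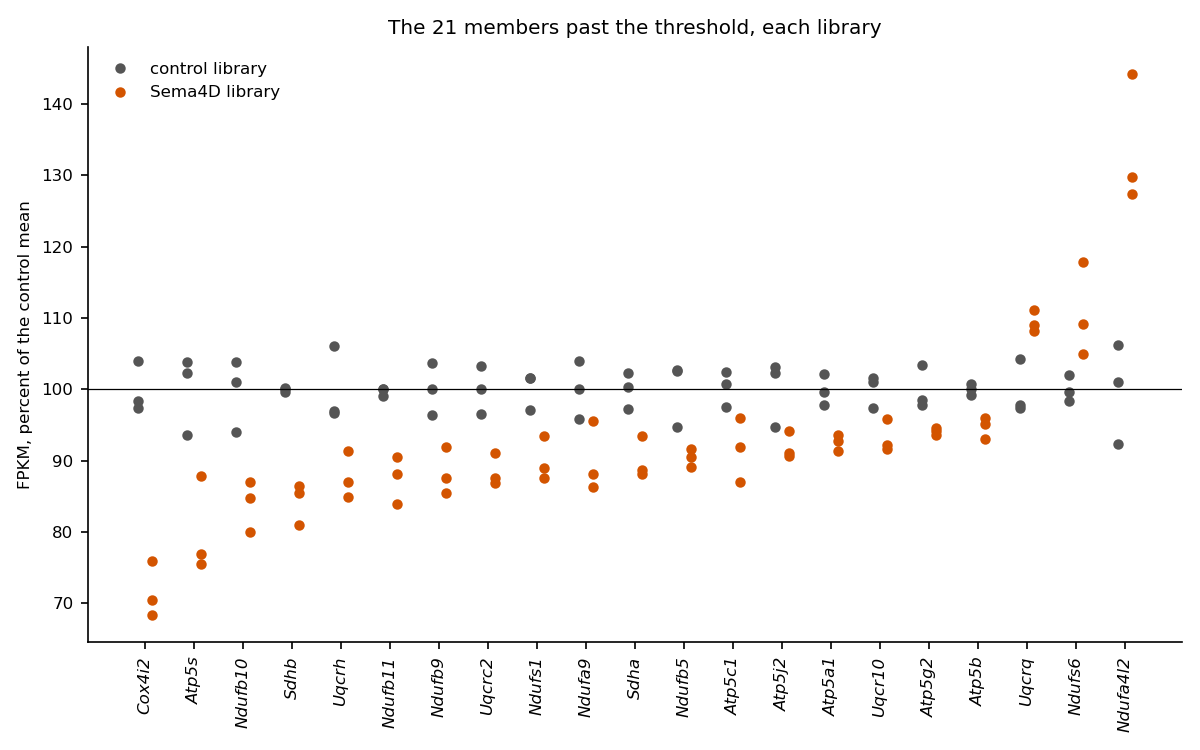
FPKM of the 21 called members in each control (grey) and Sema4D (orange) library, as percent of that gene's control mean (vertical axis), in order of fold change. In all 21 the Sema4D points lie apart from the control points, with Cox4i2 (-28.3%) and Ndufa4l2 (34.1%) farthest from the control mean.

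Except in complex II, levels within a complex spanned a wide range. In control, means ran from 14.9 (Ndufa11) to 187 FPKM (Ndufa3) in complex I, from 54.9 (Sdhc) to 82.9 FPKM (Sdhb) in complex II, from 41.7 (Uqcrfs1) to 299 FPKM (Uqcrh) in complex III, and from 89.6 (Atp5f1) to 370 FPKM (Atp5b) in complex V. In complex IV Cox4i1 was highest at 437 FPKM and Cox7b2 lowest, listed at 0. Median levels were 76.2, 67.9, 167, 102 and 217 FPKM for complexes I to V, and 74.4, 62.9, 160, 112 and 207 FPKM with Sema4D. Subunits of complexes I and II thus had the lowest medians in both groups. The order of some subunits differed between groups. In complex II Sdhb was above Sdhd in control (82.9 against 73.7 FPKM) and below it with Sema4D (69.9 against 76.8 FPKM). In complex IV Ndufa4l2 was below Cox8a in control (208 against 259 FPKM) and above it with Sema4D (278 against 251 FPKM). In complex V Atp5j2 was above Atp5j in control (225 against 217 FPKM) and below it with Sema4D (207 against 222 FPKM). Within-group spread was smallest for Cox6b1 (0.885% of its mean) and Uqcrc1 (1.2%) and largest for Cox7a1 (48.9%).

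**Figure D5:**
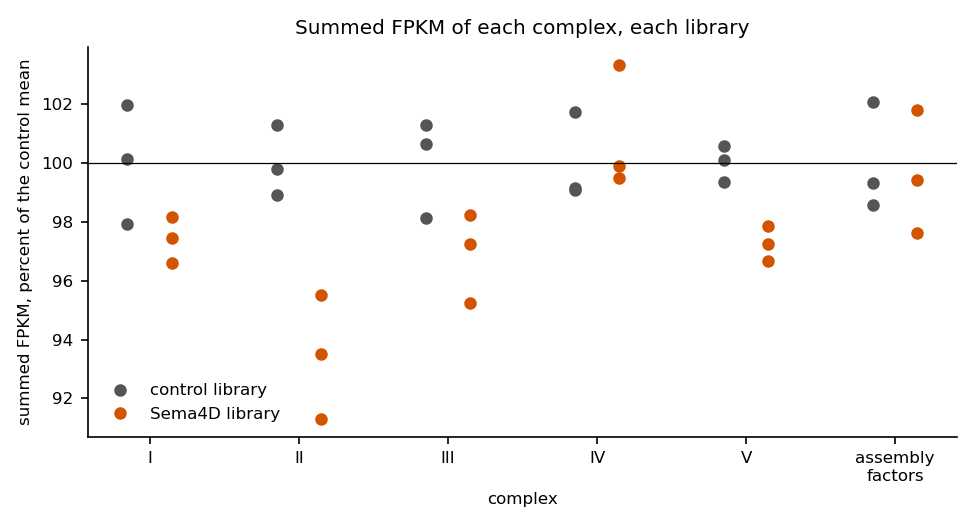
Summed FPKM of the subunits of each complex and of the 11 assembly factors in each library, as percent of the control mean of that sum (vertical axis, which does not start at 0). Control (grey) and Sema4D (orange) libraries do not overlap for complexes II and V and overlap for complexes I, III and IV and the assembly factors.

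The Ndufaf and Sdhaf assembly factors, which build complexes I and II and are absent from the finished enzymes, were expressed lower than most subunits. All 11 were tested, with control means of 2.93 FPKM (Ndufaf5) to 23.3 FPKM (Sdhaf4). The complex I subunits Ndufa11 (14.9 FPKM) and Ndufs5 (22.4 FPKM) lay below the highest of these, as did the low paralogs of complex IV. Of them 1 rose, 1 fell and 9 did not pass (median -0.05, beside -0.04 for the subunits). Ndufaf7, a methyltransferase that acts early in complex I assembly, was at 7.1, 6.89 and 7.28 FPKM in control and 5.78, 6.46 and 5.18 FPKM in Sema4D libraries (-0.25, limma adjusted p = 0.0192), lost without control replicate 1 or 3 or Sema4D replicate 1 or 3 (0.0501 to 0.0661). Sdhaf3, which helps mature the iron-sulphur subunit of complex II, was at 3.96, 7.32 and 5.49 FPKM against 7.6, 7.26 and 9.77 FPKM (0.51, adjusted p = 0.047). Its groups overlapped, and the call was lost without any 1 library but control replicate 2 (0.0572 to 0.147). The Sdhaf3 call was also lost with no filter, after quantile normalization or TPM scaling and without eBayes's trend (limma adjusted p 0.0595 to 0.0952).

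Most other mitochondrial lists held both rises and falls. The share called was 25% to 50% in the 5 lists of this paragraph, beside 46.7% of all tested genes (24.5% higher and 22.2% lower). Of 35 tested assembly and maintenance factors with other symbols, 5 rose and 8 fell (median -0.07). Surf1, a complex IV assembly factor, was at 31.2, 31.3 and 31.5 FPKM in control and 25.4, 25.6 and 26.3 FPKM in Sema4D libraries (-0.27, limma adjusted p = 0.000158), and Sco2, which delivers copper to complex IV, was at 17, 19.8 and 18.2 FPKM against 24.2, 22.9 and 25.8 FPKM (0.39, adjusted p = 0.00111). Both had groups that did not overlap, in opposite directions. Cox20, another complex IV assembly factor, named after its values were seen, was at 43, 54 and 46.6 FPKM against 31.3, 34.4 and 25.3 FPKM (-0.65, adjusted p = 0.00199), a larger fall than that of any oxidative phosphorylation member. Of 11 subunits and carriers outside the symbols, 2 rose and 2 fell (median 0.02). Higd1a, a hypoxia-induced factor that binds complex IV, rose from 87.2 ± 3.32 to 119 ± 0.901 FPKM (0.44, adjusted p = 1.16e-05), and Atpif1, the inhibitor of ATP synthase, fell from 39.8 ± 1.58 to 33 ± 2.21 FPKM (-0.27, adjusted p = 0.00365). Of 12 regulators of mitochondrial biogenesis 3 rose and 0 fell (median 0.05), among them the mitochondrial helicase gene Peo1 (0.26) and the transcription factor gene Tfb2m (0.16), while the coactivator gene Ppargc1a stood at 1.01 ± 0.159 and 0.627 ± 0.0709 FPKM and was under the filter. Of 16 tricarboxylic acid cycle genes 2 rose (Dld, 0.23, and Dlst, 0.14) and 3 fell (median -0.03), and of 12 coenzyme Q synthesis genes 3 rose and 3 fell (median 0.05), with the smallest p for Adck3 (-0.39) and Coq9 (-0.20).

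Other large assemblies of abundant short transcripts were read the same way. Called were 18.2% of mitochondrial ribosomal genes, 21.1% of Rpl and Rps symbols and 66.7% of proteasome genes, beside 46.7% of all tested genes. Of 77 mitochondrial ribosomal protein genes 7 rose (among them Mrpl38, 0.49) and 7 fell (among them Mrps16, -0.27), with a median of 0.03. Of 90 symbols beginning with Rpl or Rps and a digit 16 rose and 3 fell (median 0.04), and without the kinase and binding partner symbols, which include Rps19bp1 (0.33) and Rps6kb2 (-0.29), 12 of 81 rose and 1 fell. Of 39 proteasome genes 26 rose and 0 fell (median 0.13), led by the inducible subunits Psmb8 (3.18) and Psmb10 (1.84). On the deposited scale falls outnumbered rises among the oxidative phosphorylation members, and in these 3 sets they did not. The sets were not tested against each other. TPM scaling moved the median over all tested genes from 0.006 to -0.071, so set medians near 0 depend on the scale. Counts of the 3 sets after such scaling are not given here. By the median length of their annotated transcripts, 61 of the 81 tested members were under 1000 nucleotides, where 3 rose and 11 fell, and among the 2249 tested genes of that length 22.2% rose and 20.4% fell.

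The 60 members not past the threshold were measured with differing precision. For 57 of them the 95% interval of the fold change lay within 1.5-fold in both directions, and for 26 within 1.1-fold. The intervals of Ndufs5, Cox7a1 and Cox6b2 reached beyond 1.5-fold. A missing call therefore does not show that a member was unchanged. Genes with processed copies elsewhere in the genome, of which many small subunits have several, can share reads with them, and 27 of the 81 tested members, among them 12 of the 21 called, overlap another annotated gene, so single values carry that uncertainty.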

How the data were processed

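RNA-seq of 6 libraries was used, 3 per group. The deposited values are FPKM, for which the submitters' processing notes list Cufflinks 2.2.1, TopHat2 2.0.13, SAMtools 0.1.19, Bowtie2 2.2.3 and the build mm10, without saying what each did. Not given in the sources used here are annotation, strand setting and scaling. The members and lists were chosen with earlier results of these data known. Values were transformed to log2(FPKM + 1), and 11603 genes averaging 1 FPKM or more over the 6 libraries (12743 symbols were below) were tested with limma 3.58.1 in R 4.3.3 (eBayes with a trend, two-sided, Benjamini-Hochberg adjustment, threshold 0.05, no replicate block). Counts and medians of lists come from that fit, with no set test. FPKM are not counts: with 1681 genes of 1 transcript, between 76.8% and 83.3% of values came within 0.15 of a whole number of fragments, too few to recover counts. Any member could be named. Given in full were the 3 largest rises and falls per complex, the paralog pairs and the catalytic core genes, and from other lists the 2 genes with the smallest p (Cox20, Ppargc1a and marker genes were named besides). The fit was tested on simulated data with 11603 genes, of which 50 were changed by each size. Recovered were 6% of genes changed by 1.1-fold, 40% by 1.25-fold, 86% by 1.5-fold and 94% by 2-fold. A far smaller share of genes was changed there than the 46.7% called in the real fit. The adjusted p cut was therefore stricter, and these recoveries do not give the sensitivity of this comparison. Alternatives were the pseudocount, filter, scaling, block, trend, complex assignment and leaving out each library. Gene positions and promoters came from RefSeq GRCm38.p6 (84 of 84 members matched, 69 with a promoter entry) and transcript lengths from GENCODE M21. Tables and plots were made with scipy 1.17.1, pandas 2.3.3, numpy 2.4.6 and matplotlib 3.10.9 under Python 3.11.15. Subgroups of complex I by symbol letter, the ribosomal list without kinases and the complex IV sum without Ndufa4l2 were chosen after seeing the data.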

Additional observations from a re-analysis of the deposited data

How the results depend on the processing

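Of the 21 called members, 11 kept their call under every alternative run for them, 10 lost it under at least 1, and 0 changed direction. Without eBayes's trend the calls of Atp5b, Atp5c1, Atp5g2, Atp5j2, Ndufa9, Ndufs6 and Uqcr10 were lost. With a replicate block those of Atp5b, Atp5g2, Atp5j2 and Ndufa9 were lost, and with no filter those of Atp5g2 and Ndufa9. Across the runs without 1 library, 11 to 18 members fell and 2 to 4 rose, and the members' median log2 fold change was -0.064 to -0.036, the lowest without Sema4D replicate 3. It was -0.121 both under quantile normalization and under TPM scaling. Under quantile normalization 1 member was higher and 39 lower: 0 and 14 in complex I, 0 higher in complex III, 7 lower in complex IV and 11 in complex V, with 0 assembly factors higher and 2 lower. Under TPM scaling 1 member was higher and 45 lower: 0 and 19 in complex I, 0 higher in complex III, 8 lower in complex IV and 10 in complex V, with 0 assembly factors higher and 2 lower. All 18 falls were among the falls under both scalings. Without a trend 0 complex I genes were higher and 1 complex V gene lower, and with no filter 0 assembly factors were higher. With a replicate block 14 members fell, 2 of them in complex V, and 2 assembly factors rose. Same-numbered libraries deviated together with r of 0.14, -0.0809 and -0.0544 across genes, and the other combinations with r of -0.0743 to 0.136. Such weak correlations cannot tell if the numbers pair the libraries, since a shared origin may have a small effect. By symbol alone, complex I had 2 rises and complex IV 0. Without 1 library, complex I had 0 to 2 rises, complex IV 1 to 2 rises and 1 to 2 falls, complex V 1 to 3 falls, and the assembly factors 0 to 1 of each. The median of complex IV turned from -0.01 to 0.002 without control replicate 2. Among the runs without 1 library it was lowest, -0.05, without control replicate 3. It was lower still under quantile normalization (-0.101) and TPM scaling (-0.09). The cause of these changes was not tested, and changes near 1.1-fold are at the limit of what 3 libraries per group show.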
